A study of Homo sapiens with 15 samples.

Results

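The sterol and fatty acid synthesis genes driven by the sterol regulatory element-binding proteins (SREBPs) were followed in monolayers of Caco-2, a cell line from a human colon cancer that takes on features of enterocytes once confluent. The 38 genes came from a list of symbols chosen with earlier results of these data known, so counts over it are descriptions, not tests. Each gene was found among the 60601 gene identifiers that all count files share, and all 38 passed the filter on low counts. They comprise 18 genes of sterol synthesis, 11 of fatty acid synthesis, 4 of sterol uptake and transport, and 5 of the SREBP system itself. There were 15 libraries of polyadenylated RNA in 3 groups of 5, namely cells left unexposed (control), cells given rinse aid diluted 1:40000 and cells given rinse aid diluted 1:10000, both for 24 h. Rinse aid is the liquid a dishwasher releases into its last rinse, and the 1:10000 solution was 4 times as concentrated as the 1:40000 solution. All groups are the same cell line, with no further agent named, and the labels do not say whether replicates were separate cultures, so the p-values cover the spread among these 15 samples, which may be technical. In bulk RNA, fewer cells making a transcript and less transcript per cell cannot be told apart.

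SREBP2, encoded by SREBF2, mainly drives the genes of cholesterol synthesis and uptake, and the SREBP1 isoforms, encoded by SREBF1, mainly drive those of fatty acid synthesis. Both are made as precursors in the membrane of the endoplasmic reticulum, where SCAP senses cholesterol and INSIG proteins hold the complex back when sterols are plentiful. When sterols run low, SCAP carries the precursor to the Golgi, where proteases release the part that enters the nucleus. There it binds sterol regulatory elements next to partners such as NF-Y and Sp1. The active protein is set by this cleavage, so transcript counts of SREBF1 and SREBF2 do not measure it. In enterocytes the same pathway serves a cell that also takes up dietary sterol and packages lipid into chylomicrons.

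The control libraries held 4333226 to 14230853 counts, the 1:40000 libraries 2551839 to 172092447 and the 1:10000 libraries 5489425 to 9555632. The widest gap was within the 1:40000 group, where replicate 1 was the deepest library of all and replicate 2 the shallowest. Headers name RNA STAR for the control files and HISAT2 for the rinse aid files, and the 2 kinds list different numbers of genes. In both comparisons with control, the aligner, the annotation and the exposure cannot be told apart. The comparison of 1:10000 with 1:40000 shares aligner and annotation. Levels are CPM, counts scaled to a common library size by TMM, as mean ± SD (n = 5). Log2 fold changes carry their SE. Calls were made where the adjusted p of edgeR's quasi-likelihood test lay under 0.05, with the Benjamini-Hochberg method applied over all 13158 genes tested. EPCAM averaged 884 ± 27.9 CPM in the controls, 835 ± 60.9 CPM at 1:40000 and 872 ± 68.3 CPM at 1:10000 and the intestinal cadherin CDH17 averaged 693 ± 55.7 CPM in the controls, 869 ± 62.3 CPM at 1:40000 and 694 ± 43.8 CPM at 1:10000, whereas the enterocyte marker FABP2 was at 0 in every library and KRT20 was at or near 0. At 1:10000 against control 36.2% of all genes tested were lower and 34.8% higher. Of the 10 enterocyte markers tested, 6 were lower and 2 higher there, EPCAM and CDH17 being the 2 not called. Named after their values were seen, the lower ones were CDX2 (0.367 of control), VIL1 (0.624), SI (0.203), ALPI (0.701), DPP4 (0.776) and ANPEP (0.552), and the higher ones KRT18 (1.67 times control) and KRT8 (1.33). At 1:40000 against control 2 of the 10 markers were higher and 2 lower, beside 26.1% of all genes higher and 26.0% lower. Between the dilutions 2 were higher and 6 lower, beside 28.3% of all genes higher and 29.1% lower. The leukocyte marker PTPRC and the endothelial marker KDR had no count in any library. PTPRC and KRT20 have transcripts outside the primary assembly, and the part this plays was not tested. Some markers of other cell types moved with the dilution. The 6 fibroblast markers summed to 154 to 163 CPM in the controls, 128 to 149 CPM at 1:40000 and 80.7 to 101 CPM at 1:10000. COL1A1 was the highest of them on average, and COL1A2 and DCN were at or near 0. At 1:10000 against control COL1A1 and PDGFRA fell, while COL3A1 and LUM were not called. COL3A1 averaged 18.1 CPM in the controls, 19.0 CPM at 1:40000 and 21.9 CPM at 1:10000. At 1:40000 against control LUM was called higher and PDGFRA lower. The 6 leukocyte markers summed to 13.9 to 21.6, 16.04 to 23.6 and 8.75 to 11.6 CPM in the same order, and the 4 endothelial markers to 3.77 to 10.8, 7.41 to 11.6 and 3.26 to 4.27 CPM. Their part in the results was not tested.

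At 1:10000, against 1:40000, most of the pathway was lower. Of the 38 genes 25 fell, 3 rose and 10 were not called, where 29.1% of all genes tested fell and 28.3% rose. The 3 that rose were VLDLR, STARD4 and ME1. The median log2 fold change of the 38 was -0.45, beside -0.01 over all genes tested. Sterol synthesis had 15 genes lower, 0 higher and 3 not called, and fatty acid synthesis 8 lower, 1 higher and 2 not called. Of the 5 genes of the SREBP system, edgeR called 0 between the dilutions, 1 at an unadjusted p under 0.05, DESeq2 called 1 and edgeR with the replicate number as a block called 2 (INSIG1 and INSIG2). For sterol genes higher, both gave 0, also at an unadjusted p under 0.05.

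Against control, 26 of the 38 genes fell at 1:10000, 7 rose and 5 were not called, beside 36.2% of all genes lower and 34.8% higher. At 1:40000 the balance was the other way, with 20 genes higher than control, 6 lower and 12 not called, beside 26.1% of all genes higher and 26.0% lower. The medians were -0.33 at 1:10000 and 0.26 at 1:40000, both on the log2 scale and over the same controls. Without 1:40000 replicates 1 and 2, 18 of the 38 rose and 7 fell at 1:40000 against control, and 4 rose and 25 fell between the dilutions. The balance of calls over all genes depended on the filter and the scaling. At 1:40000 against control 3440 genes were higher and 3419 lower as reported. Upper-quartile scaling gave 4032 higher and 2899 lower, and no filter on low counts gave 4499 and 2929 of 30984 genes. Between the dilutions 3720 were higher and 3823 lower as reported. There, upper-quartile scaling gave 3323 higher and 4288 lower, and no filter gave 3207 and 4360.

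**Figure D1:**
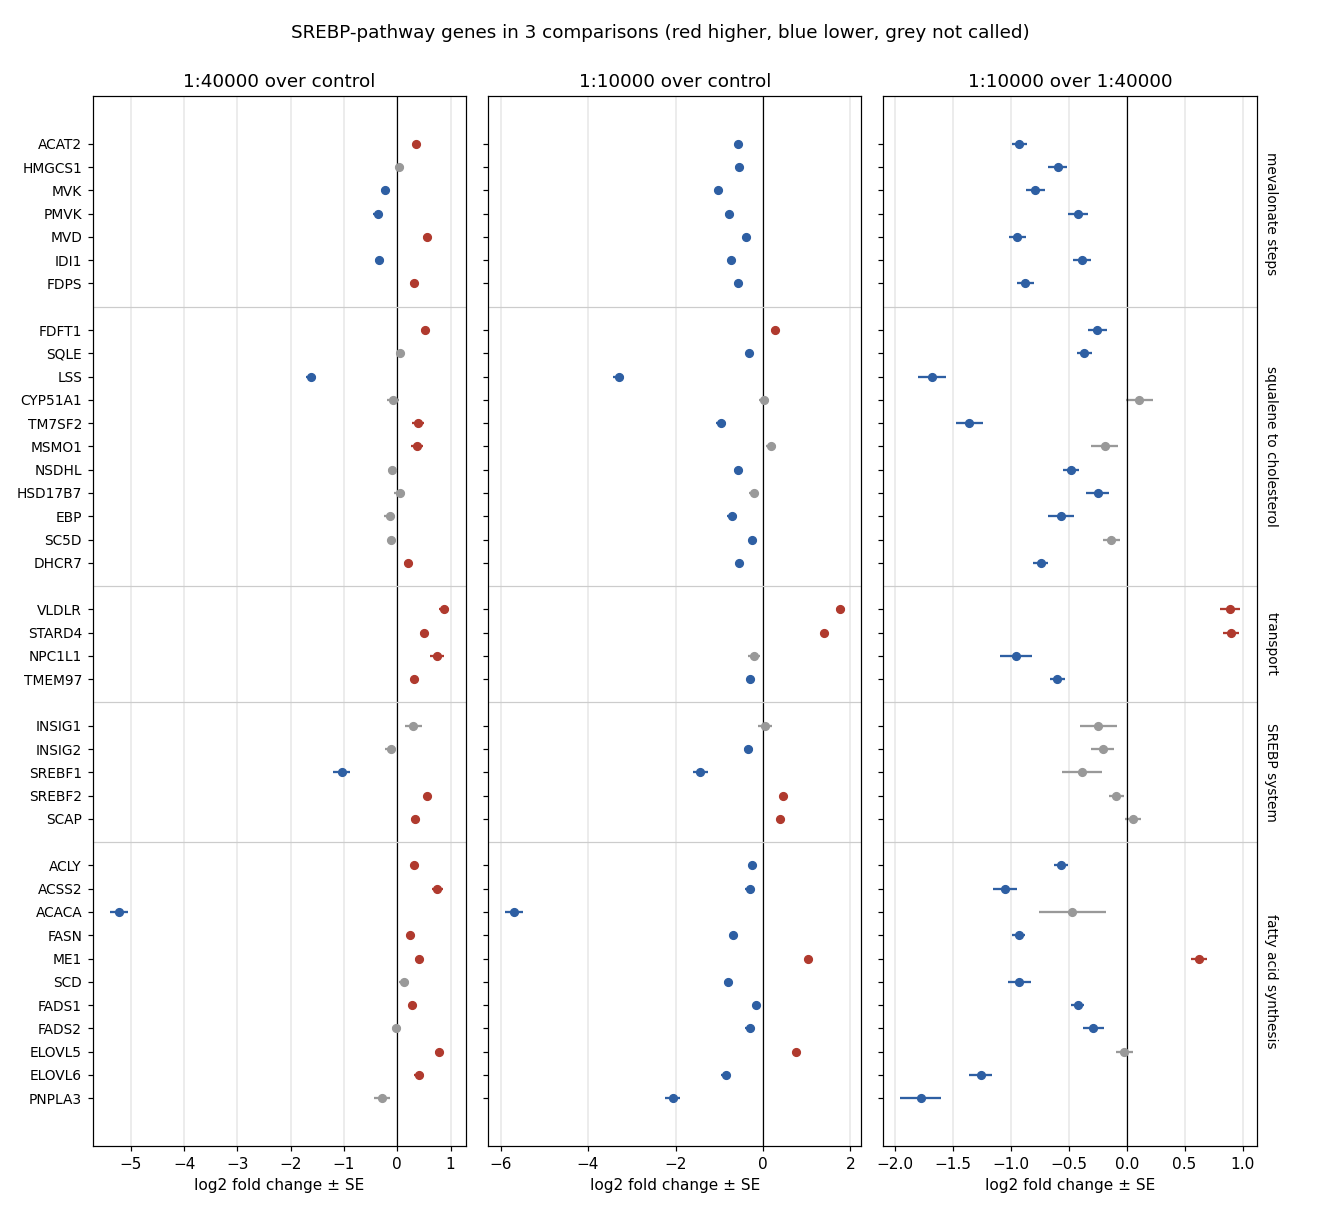
Log2 fold change ± SE of all 38 genes in 3 comparisons, grouped by role, with red for called higher, blue for called lower and grey for not called, and with a different horizontal scale in each panel. Between the dilutions the points of both synthesis branches lie left of 0 except CYP51A1 and ME1, while VLDLR and STARD4 lie to the right.

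The first steps of the pathway build the isoprenoid units of cholesterol from acetyl-CoA. All 7 genes of this stretch fell at 1:10000 both against control and against 1:40000, while at 1:40000 against control 3 rose (ACAT2, MVD and FDPS), 3 fell (MVK, PMVK and IDI1) and HMGCS1 was not called. Beside these counts, 36.2% of all genes tested fell at 1:10000 against control and 29.1% fell between the dilutions. At 1:40000 against control 26.1% of all genes rose and 26.0% fell. The median log2 fold change was -0.57 at 1:10000 over control and -0.79 at 1:10000 over 1:40000.

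MVK, mevalonate kinase, had 49.1, 51.1, 52.6, 48.2 and 54.7 CPM in the controls, 41.0, 38.2, 41.8, 46.3 and 49.2 CPM at 1:40000, and 24.2, 22.4, 24.8, 27.0 and 27.1 CPM at 1:10000. The 1:10000 libraries lay below all others, whereas the 1:40000 and control libraries overlapped. At 1:10000 MVK was 0.493 of control (log2 fold change -1.02 ± 0.08, adjusted p = 5.77e-11) and 0.578 of the 1:40000 level (-0.79 ± 0.08, adjusted p = 1.45e-08). At 1:40000 over control the change was -0.23 ± 0.08, adjusted p = 0.0147, a call that was lost without control replicate 5 (-0.19, adjusted p = 0.0586) and under 3 other alternatives (adjusted p = 0.0551 to 0.189). MVK shares exon bases with MMAB on the opposite strand, which had log2 fold changes of -0.91, -0.13 and -0.78 in the same 3 comparisons (1:10000 over control, 1:40000 over control and 1:10000 over 1:40000), and without a stated strand setting their reads cannot be told apart.

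PMVK, phosphomevalonate kinase, had 33.6, 35.1, 31.3, 35.4 and 33.1 CPM in the controls, 23.2, 26.4, 25.7, 28.997 and 28.3 CPM at 1:40000, and 20.2, 17.3, 20.1, 19.7 and 20.6 CPM at 1:10000. The 3 groups did not overlap and stood in order of concentration. The log2 fold change was -0.78 ± 0.09, adjusted p = 1.89e-08 at 1:10000 over control, -0.37 ± 0.08, adjusted p = 0.000712 at 1:40000 over control and -0.42 ± 0.09, adjusted p = 0.000247 between the dilutions.

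IDI1, which isomerises isopentenyl diphosphate, had 382, 306, 312, 315 and 299 CPM in the controls, 227, 256, 278, 268 and 251.3 CPM at 1:40000, and 235, 189, 179, 189.6 and 184 CPM at 1:10000. Both rinse aid groups lay below every control, and replicate 1 at 1:10000 lay within the 1:40000 range. Its log2 fold changes were -0.72 ± 0.08, adjusted p = 1.01e-08 at 1:10000 over control and -0.39 ± 0.08, adjusted p = 0.000152 between the dilutions.

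MVD, the decarboxylase that makes isopentenyl diphosphate, had 150.4, 154, 135, 131 and 128 CPM in the controls, 219, 226, 169.5, 201 and 211 CPM at 1:40000, and 104, 115, 98.5, 106 and 109 CPM at 1:10000. Every 1:40000 library lay above the controls and every 1:10000 library below them. MVD was 1.47 times control at 1:40000 (0.55 ± 0.07, adjusted p = 8.19e-07) and 0.762 of control at 1:10000 (-0.39 ± 0.08, adjusted p = 5.31e-05). Between the dilutions the difference was -0.94 ± 0.07, adjusted p = 1.37e-10.

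ACAT2, the acetyl-CoA acetyltransferase that joins acetyl units, had 249.9, 259.5, 238, 238 and 238 CPM in the controls, 305, 339, 281, 323 and 321 CPM at 1:40000, and 180.1, 167, 143, 179 and 152 CPM at 1:10000. As for MVD, the 3 groups did not overlap and the controls lay between the dilutions. The log2 fold change was -0.93 ± 0.07, adjusted p = 2.53e-11 between the dilutions. The exons of ACAT2 overlap those of SOD2 and TCP1, whose log2 fold changes between the dilutions were -0.33 and 0.27. FDPS, farnesyl diphosphate synthase, averaged 184 ± 12.6 CPM in the controls, 229 ± 21.0 CPM at 1:40000 and 124 ± 12.7 CPM at 1:10000 and fell between the dilutions (-0.88 ± 0.07, adjusted p = 4.58e-10). HMGCS1, which makes HMG-CoA, averaged 473 ± 52.4 CPM in the controls, 486 ± 20.7 CPM at 1:40000 and 321 ± 43.8 CPM at 1:10000 and fell between the dilutions too (-0.59 ± 0.08, adjusted p = 1.8e-06).

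From farnesyl diphosphate, squalene is made, oxidised, closed into lanosterol and trimmed to cholesterol. Of these 11 genes 8 fell between the dilutions and 3 (CYP51A1, MSMO1 and SC5D) were not called, though MSMO1 was called lower with the replicate number as a block (-0.21, adjusted p = 0.00365). Against control, 7 fell and 1 (FDFT1) rose at 1:10000, while at 1:40000 4 rose (FDFT1, TM7SF2, MSMO1 and DHCR7), 1 (LSS) fell and 6 were not called. Over all genes tested, 29.1% fell between the dilutions, and 36.2% fell and 34.8% rose at 1:10000 against control. The shares at 1:40000 against control were 26.1% higher and 26.0% lower.

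LSS, lanosterol synthase (chr21:46188141-46228824, minus strand, GENCODE 29 on GRCh38), had 119, 136, 105, 113 and 108 CPM in the controls, 31.7, 32.1, 40.6, 37.9 and 45.9 CPM at 1:40000, and 9.83, 10.6, 11.5, 14.3 and 12.9 CPM at 1:10000. The 3 groups stood apart, in order of concentration. At 1:10000 LSS was 0.101 of control (-3.30 ± 0.12, adjusted p = 1.17e-17), at 1:40000 it was 0.325 of control (-1.62 ± 0.10, adjusted p = 8.44e-13), and between the dilutions, where the files share aligner and annotation, the log2 fold change was -1.68 ± 0.12, adjusted p = 3.05e-11. LSS also has transcripts outside the primary assembly, and the part this plays was not tested. In its comparisons with control, exposure and counting cannot be told apart. Without LSS, sterol synthesis had 13 of 17 genes lower at 1:10000 against control and 14 of 17 lower between the dilutions. The shares of all genes tested were 36.2% and 29.1%.

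TM7SF2, a sterol C14 reductase, had 86.3, 109, 66.6, 72.1 and 75.5 CPM in the controls, 102, 117, 92.2, 111 and 120.5 CPM at 1:40000, and 37.4, 46.8, 39.980, 42.7 and 44.1 CPM at 1:10000. The 1:10000 libraries lay below all others, and the 1:40000 and control libraries overlapped. Between the dilutions its log2 fold change was -1.36 ± 0.11, adjusted p = 2.95e-09, and at 1:10000 over control -0.97 ± 0.11, adjusted p = 1.83e-07. VPS51, whose exons overlap TM7SF2 on the same strand, had a log2 fold change of -0.05 between the dilutions.

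EBP, the sterol isomerase also known as emopamil-binding protein, had 59.9, 76.4, 61.5, 65.5 and 55.6 CPM in the controls, 65.0, 70.3, 46.5, 56.0 and 56.7 CPM at 1:40000, and 46.8, 42.9, 32.8, 38.3 and 34.9 CPM at 1:10000. The 1:10000 libraries lay below every control, and the highest of them slightly exceeded the lowest 1:40000 library. Its log2 fold changes were -0.71 ± 0.11, adjusted p = 7.73e-06 at 1:10000 over control and -0.57 ± 0.11, adjusted p = 0.000176 between the dilutions. At 1:40000 over control it was called only without 1:40000 replicates 1 and 2 (-0.28, adjusted p = 0.0404), of the alternatives run.

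DHCR7, which makes cholesterol from its immediate precursor in a branch of the pathway, averaged 605 ± 30.3 CPM in the controls, 694 ± 49.8 CPM at 1:40000 and 414 ± 34.7 CPM at 1:10000, with a log2 fold change of -0.74 ± 0.06, adjusted p = 5.46e-10 between the dilutions. Its rise at 1:40000 over control (0.20 ± 0.06, adjusted p = 0.0109) was not called without 1:40000 replicates 1 and 2 (0.17, adjusted p = 0.0593). NSDHL, a sterol dehydrogenase, averaged 69.6 ± 5.41 CPM in the controls, 64.9 ± 2.69 CPM at 1:40000 and 46.5 ± 2.76 CPM at 1:10000 and SQLE, squalene epoxidase, 200.1 ± 11.4 CPM in the controls, 208 ± 17.1 CPM at 1:40000 and 160.2 ± 12.8 CPM at 1:10000. Between the dilutions NSDHL fell by 0.48 and SQLE fell by 0.37 on the log2 scale.

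FDFT1, squalene synthase, averaged 198 ± 5.62 CPM in the controls, 286 ± 37.9 CPM at 1:40000 and 239 ± 30.4 CPM at 1:10000, and was the sterol synthesis gene called higher at 1:10000 against control (0.27 ± 0.08, adjusted p = 0.00598). Between the dilutions it fell (-0.25 ± 0.08, adjusted p = 0.0108), a call lost without 1:40000 replicate 2 (-0.18, adjusted p = 0.0522) and without 1:40000 replicates 1 and 2 (-0.11, adjusted p = 0.208). HSD17B7, a sterol ketoreductase, averaged 24.8 ± 3.13 CPM in the controls, 25.7 ± 1.27 CPM at 1:40000 and 21.7 ± 2.51 CPM at 1:10000 and was called lower between the dilutions (-0.25 ± 0.10, adjusted p = 0.0338), a call lost without 1:10000 replicate 1 or 3 (adjusted p = 0.0808 and 0.127) and without 1:40000 replicate 2, 3 or 4 (adjusted p = 0.0554, 0.0851 and 0.0529). Its pseudogene HSD17B7P2 averaged 1.68 CPM in the controls, 2.27 CPM at 1:40000 and 6.46 CPM at 1:10000, and the part of this in its values was not tested. At 1:10000 over control HSD17B7 was not called (-0.21 ± 0.10, adjusted p = 0.0719), except without 1:10000 replicate 4 (-0.25, adjusted p = 0.043), control replicate 3 (-0.24, adjusted p = 0.0494) or control replicate 5 (-0.26, adjusted p = 0.0367). SC5D, a sterol desaturase, averaged 354 ± 30.8 CPM in the controls, 329 ± 23.7 CPM at 1:40000 and 299.6 ± 31.1 CPM at 1:10000, and was called lower at 1:10000 against control (-0.24 ± 0.07, adjusted p = 0.00431). Between the dilutions it was called lower without the filter on low counts (-0.20, adjusted p = 0.0328) and with upper-quartile scaling (-0.18, adjusted p = 0.03). MSMO1, a methylsterol oxidase, averaged 175 ± 22.9 CPM in the controls, 227 ± 26.2 CPM at 1:40000 and 198 ± 35.9 CPM at 1:10000, and was called higher at 1:40000 against control (0.37 ± 0.11, adjusted p = 0.0119), though not without 1:40000 replicates 1 and 2 (0.28, adjusted p = 0.113). CYP51A1, the lanosterol demethylase and a cytochrome P450, averaged 23.8 ± 3.09 CPM in the controls, 22.7 ± 2.09 CPM at 1:40000 and 24.2 ± 4.88 CPM at 1:10000 and was called in no comparison. Its pseudogenes CYP51A1P1 and CYP51A1P2 averaged 0.0883 and 0.388 CPM in the controls, 3.24 and 5.47 CPM at 1:40000, and 3.60 and 4.90 CPM at 1:10000, and whether reads of CYP51A1 were counted there was not tested. Pseudogene levels here are CPM without TMM scaling.

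**Figure D2:**
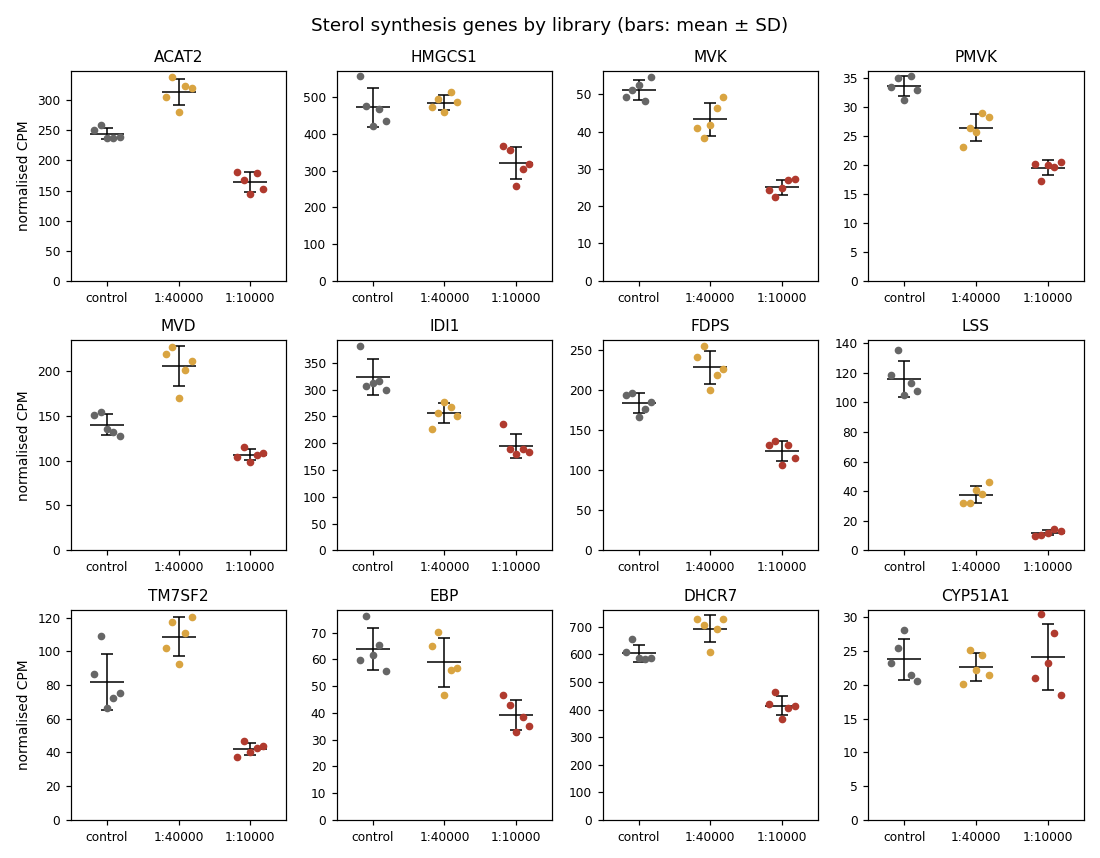
Normalised CPM of 12 sterol synthesis genes in every library, with points for libraries and bars for the mean ± SD of 5. MVD, ACAT2, FDPS and DHCR7 are on average highest at 1:40000, whereas PMVK, IDI1 and LSS step down with concentration and CYP51A1 overlaps throughout.

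Fatty acid synthesis starts from cytosolic acetyl-CoA and ends in desaturated and elongated chains. Against control, 9 of its 11 genes fell at 1:10000 and 2 (ME1 and ELOVL5) rose, while at 1:40000 7 rose, 1 (ACACA) fell and 3 were not called. The median log2 fold change was -0.31 at 1:10000 over control, 0.27 at 1:40000 over control and -0.57 between the dilutions. Without ACACA, which is described next, 8 of 10 fell at 1:10000, 7 of 10 rose at 1:40000 and the median between the dilutions was -0.75. Over all genes tested, 36.2% fell and 34.8% rose at 1:10000 against control. The shares at 1:40000 against control were 26.1% higher and 26.0% lower.

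ACACA, acetyl-CoA carboxylase (chr17:37084988-37406818, minus strand), had 77.7, 83.5, 72.3, 75.0 and 69.4 CPM in the controls, 2.63, 1.15, 1.52, 1.11 and 1.64 CPM at 1:40000, and 0.702, 2.03, 2.14, 1.83 and 0.776 CPM at 1:10000. The rinse aid libraries overlapped each other far below every control. The log2 fold change was -5.69 ± 0.21, adjusted p = 5.04e-16 at 1:10000 over control and -5.22 ± 0.18, adjusted p = 1.49e-16 at 1:40000 over control. ACACA has transcripts outside the primary assembly and is near absent in the rinse aid files, so in these comparisons with control exposure and counting cannot be told apart, and the difference between the dilutions was not called (-0.47 ± 0.29, adjusted p = 0.174).

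PNPLA3, a lipase and acyltransferase of lipid droplets, had 21.8, 25.5, 16.9, 18.9 and 16.5 CPM in the controls, 17.5, 21.4, 12.8, 17.2 and 15.8 CPM at 1:40000, and 5.38, 7.32, 3.66, 4.12 and 3.88 CPM at 1:10000. The 1:10000 libraries lay below all others, and the controls and the 1:40000 libraries overlapped. At 1:10000 PNPLA3 was 0.239 of control (-2.07 ± 0.18, adjusted p = 2.21e-10) and 0.291 of the 1:40000 level (-1.78 ± 0.18, adjusted p = 8.39e-09). At 1:40000 over control it was not called (-0.29 ± 0.15, adjusted p = 0.105), except without 1:40000 replicates 1 and 2 (-0.41, adjusted p = 0.034). SAMM50, which overlaps it on the same strand, had a log2 fold change of -0.09 between the dilutions.

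ELOVL6, an elongase of saturated and monounsaturated chains, had 35.0, 34.0, 28.6, 28.7 and 29.8 CPM in the controls, 37.4, 44.3, 42.4, 43.5 and 41.4 CPM at 1:40000, and 19.4, 20.3, 16.8, 15.6 and 14.4 CPM at 1:10000. Every 1:40000 library lay above the controls and every 1:10000 library below them. ELOVL6 had a log2 fold change of 0.41 ± 0.09, adjusted p = 0.000546 at 1:40000 over control, -0.85 ± 0.10, adjusted p = 4.32e-08 at 1:10000 over control and -1.26 ± 0.10, adjusted p = 9.78e-11 between the dilutions.

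ME1, malic enzyme, which supplies NADPH, had 208, 210.2, 259, 254 and 265 CPM in the controls, 324, 317, 316, 315 and 310.0 CPM at 1:40000, and 556, 494, 474, 453 and 458 CPM at 1:10000. It ran opposite to most of the branch, since the 3 groups stood apart and rose with concentration. At 1:10000 it was 2.04 times control (1.03 ± 0.07, adjusted p = 2.42e-12), and between the dilutions the log2 fold change was 0.62 ± 0.07, adjusted p = 4.44e-08.

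Among the others, ACLY, which makes cytosolic acetyl-CoA from citrate, averaged 461 ± 15.1 CPM in the controls, 573 ± 38.3 CPM at 1:40000 and 387 ± 24.7 CPM at 1:10000, and fell by 0.57 on the log2 scale between the dilutions. ACSS2, which makes it from acetate, averaged 119 ± 15.7 CPM in the controls, 201 ± 29.7 CPM at 1:40000 and 96.5 ± 9.65 CPM at 1:10000, with a log2 fold change of -1.05 ± 0.10, adjusted p = 4.22e-08 between the dilutions. Its fall at 1:10000 over control (-0.31 ± 0.10, adjusted p = 0.0134) was not called without 1:10000 replicate 1 (-0.25, adjusted p = 0.0561). FASN, fatty acid synthase, averaged 577 ± 32.9 CPM in the controls, 683 ± 50.6 CPM at 1:40000 and 358 ± 7.99 CPM at 1:10000. FASN was higher than control at 1:40000 (0.24 ± 0.06, adjusted p = 0.00082), lower than control at 1:10000 (-0.69 ± 0.06, adjusted p = 8.2e-11) and lower between the dilutions (-0.93 ± 0.06, adjusted p = 1.99e-12). SCD, stearoyl-CoA desaturase, was by far the most abundant member per kilobase of exon, at 568 CPM per kb in the controls, against 1.47 for VLDLR, the lowest. It averaged 3047 ± 413 CPM in the controls, 3331 ± 366 CPM at 1:40000 and 1751 ± 240.0 CPM at 1:10000, and fell between the dilutions (-0.93 ± 0.10, adjusted p = 2.2e-07). Its pseudogene SCDP1 averaged 0.378 CPM in the controls, 16.2 CPM at 1:40000 and 7.87 CPM at 1:10000. The desaturases FADS1 and FADS2, whose exons overlap each other, averaged 309 ± 20.7 CPM in the controls, 375 ± 17.8 CPM at 1:40000 and 279 ± 17.8 CPM at 1:10000 for FADS1, and 32.5 ± 3.51 CPM in the controls, 31.6 ± 3.65 CPM at 1:40000 and 26.4 ± 2.78 CPM at 1:10000 for FADS2. Between the dilutions FADS1 fell by 0.42 and FADS2 fell by 0.29 on the log2 scale. FEN1, whose exons overlap FADS2 on the same strand, had log2 fold changes of -1.67 at 1:10000 over control and -0.81 between the dilutions. Its part in the FADS2 values was not tested. FADS1 at 1:10000 over control (-0.15 ± 0.06, adjusted p = 0.0253) lost its call without 1:10000 replicate 1, 3 or 5 (adjusted p = 0.0941, 0.0628 and 0.0562), without control replicate 2 (adjusted p = 0.093) and without the filter on low counts (adjusted p = 0.0922). ELOVL5, the elongase of polyunsaturated chains, averaged 127 ± 4.88 CPM in the controls, 219 ± 26.1 CPM at 1:40000 and 215 ± 24.5 CPM at 1:10000, higher than control at both dilutions and not called between them (-0.02 ± 0.08, adjusted p = 0.836).

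**Figure D3:**
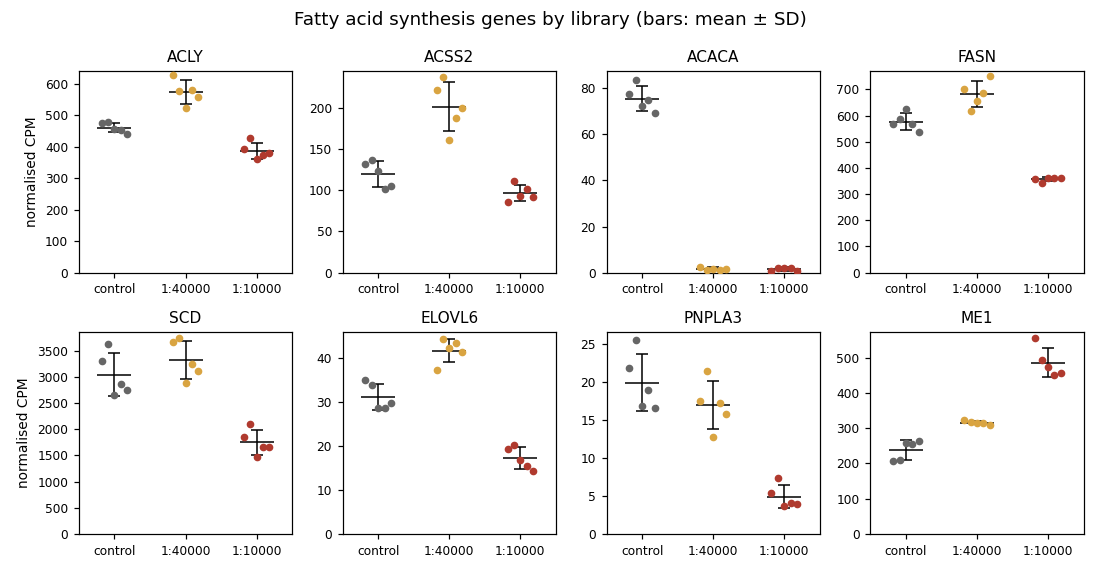
Normalised CPM of 8 fatty acid synthesis genes in every library, with points for libraries and bars for the mean ± SD of 5. FASN, ACLY, ACSS2 and ELOVL6 are on average highest at 1:40000 and lowest at 1:10000, ME1 rises with concentration, and ACACA is near 0 in both rinse aid groups.

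Across libraries, the median log2 difference of the 17 sterol genes other than LSS from their control mean was -0.11 to 0.10 in control libraries, 0.01 to 0.15 at 1:40000 and -0.72 to -0.40 at 1:10000. For the 10 fatty acid genes other than ACACA it was -0.06 to 0.09 in control libraries, 0.19 to 0.35 at 1:40000 and -0.47 to -0.25 at 1:10000. Both branches therefore had all 5 of their 1:10000 libraries below every other library, while at 1:40000 the fatty acid medians lay above every control and the sterol medians overlapped the controls. The difference between the branches themselves was not tested.

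**Figure D4:**
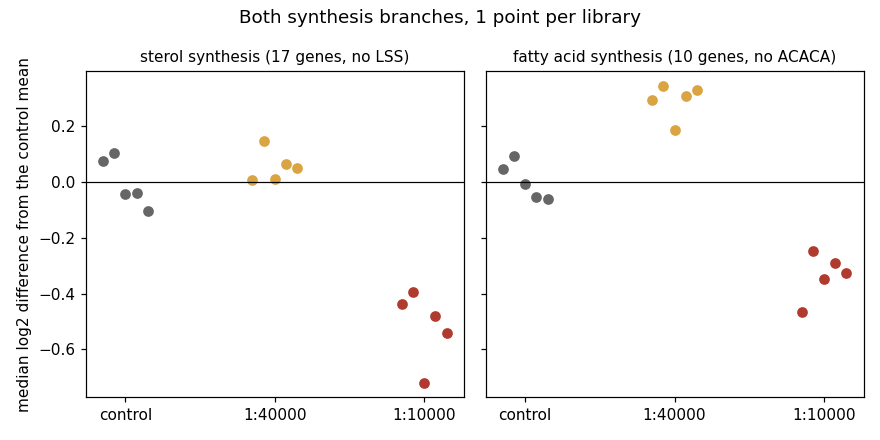
Median log2 difference from the control mean in each library, for sterol synthesis without LSS (left) and fatty acid synthesis without ACACA (right), 1 point per library. The 1:10000 libraries lie lowest in both panels, and the 1:40000 libraries lie highest for fatty acid synthesis.

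The 4 genes of uptake and transport did not follow the synthesis genes as a group. All 4 rose at 1:40000 against control, and between the dilutions VLDLR and STARD4 rose while NPC1L1 and TMEM97 fell. Over all genes tested, 26.1% rose at 1:40000 against control, and 28.3% rose and 29.1% fell between the dilutions. VLDLR, a lipoprotein receptor, had 10.8, 13.5, 14.4, 15.025 and 15.1 CPM in the controls, 24.3, 25.6, 27.5, 24.4 and 26.6 CPM at 1:40000, and 50.9, 44.3, 51.0, 43.0 and 48.1 CPM at 1:10000. The 3 groups stood apart and rose with concentration. At 1:10000 VLDLR was 3.42 times control (1.77 ± 0.09, adjusted p = 1.64e-14) and 1.85 times the 1:40000 level (0.89 ± 0.09, adjusted p = 4.47e-09). Its antisense VLDLR-AS1 averaged 0.749 CPM in controls, 2.93 CPM at 1:40000 and 3.99 CPM at 1:10000.

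STARD4, a cytosolic sterol carrier, had 134, 109, 137, 134 and 132 CPM in the controls, 193, 191, 185, 172 and 168 CPM at 1:40000, and 359, 366, 321, 332 and 317 CPM at 1:10000. Its groups also stood apart in order of concentration. The log2 fold change was 1.39 ± 0.07, adjusted p = 2.63e-15 at 1:10000 over control and 0.90 ± 0.07, adjusted p = 3.73e-11 between the dilutions. NPC1L1, the intestinal cholesterol importer, had 23.0, 31.2, 26.2, 25.8 and 23.1 CPM in the controls, 50.9, 49.3, 31.5, 44.1 and 45.3 CPM at 1:40000, and 18.0, 30.1, 19.5, 24.1 and 23.0 CPM at 1:10000. The 1:40000 libraries lay above both other groups, which overlapped. NPC1L1 had a log2 fold change of 0.75 ± 0.13, adjusted p = 9.04e-05 at 1:40000 over control and -0.95 ± 0.14, adjusted p = 5.77e-06 between the dilutions. At 1:10000 over control it was -0.20 ± 0.14, adjusted p = 0.217. TMEM97, the sigma-2 receptor, had 619, 622, 535, 585 and 541 CPM in the controls, 720.1, 812, 659, 726 and 701 CPM at 1:40000, and 509.8, 518, 429.6, 461 and 465 CPM at 1:10000. The controls lay between the dilutions without overlap, as for MVD. Its log2 fold change was -0.60 ± 0.07, adjusted p = 2.92e-08 between the dilutions and 0.32 ± 0.07, adjusted p = 0.000251 at 1:40000 over control.

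Among the genes that run the system, SREBF2 and SCAP were higher than control at both dilutions and SREBF1 was lower. SREBF1 had 105, 112, 111, 108 and 120.3 CPM in the controls, 36.4, 35.5, 52.7, 68.8 and 73.7 CPM at 1:40000, and 41.0, 42.1, 35.8, 45.2 and 42.5 CPM at 1:10000. Replicates 1 and 2 at 1:40000 lay at the 1:10000 level and the other 3 lay above it, and all rinse aid libraries lay below the controls. The log2 fold change was -1.43 ± 0.17, adjusted p = 2.56e-06 at 1:10000 over control and -1.05 ± 0.17, adjusted p = 9.42e-05 at 1:40000 over control. Between the dilutions it was not called (-0.39 ± 0.18, adjusted p = 0.0737), but it was called without 1:40000 replicate 1 (-0.53, adjusted p = 0.00252), without replicate 2 (-0.45, adjusted p = 0.0265) and without both (-0.63, adjusted p = 2.21e-06). It was also called by DESeq2 (-0.36, adjusted p = 0.0306) and with upper-quartile scaling (-0.43, adjusted p = 0.0446). SREBF1 overlaps RAI1 on the opposite strand, which had a log2 fold change of -0.41 between the dilutions.

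SREBF2 had 241, 271, 249, 246 and 255 CPM in the controls, 422, 343, 335, 362 and 392 CPM at 1:40000, and 323, 365, 345, 358 and 356 CPM at 1:10000. All rinse aid libraries lay above the controls and the dilutions overlapped. Its log2 fold change was 0.47 ± 0.06, adjusted p = 3.39e-07 at 1:10000 over control, 0.56 ± 0.06, adjusted p = 5.67e-08 at 1:40000 over control and -0.09 ± 0.06, adjusted p = 0.228 between the dilutions. SCAP had 157, 175, 171, 166 and 168 CPM in the controls, 252, 219, 184, 192 and 207 CPM at 1:40000, and 206, 229.9, 223, 221 and 214 CPM at 1:10000. Its rinse aid libraries also lay above every control. SCAP had log2 fold changes of 0.39 ± 0.07, adjusted p = 2.52e-05 at 1:10000 over control and 0.33 ± 0.07, adjusted p = 0.000287 at 1:40000 over control. Between the dilutions SCAP was called without 1:40000 replicates 1 and 2 (0.19, adjusted p = 0.0104). INSIG1 averaged 241 ± 37.5 CPM in the controls, 297 ± 44.8 CPM at 1:40000 and 249 ± 62.1 CPM at 1:10000. It was called in no comparison by edgeR with all libraries and no block. Between the dilutions it was called with the replicate number as a block (-0.27, adjusted p = 0.012) and without 1:10000 replicate 2 (-0.38, adjusted p = 0.0251), and at 1:40000 over control with the block (0.30, adjusted p = 0.00599). INSIG2 averaged 23.4 ± 1.78 CPM in the controls, 21.6 ± 2.31 CPM at 1:40000 and 18.6 ± 2.32 CPM at 1:10000 and was called lower at 1:10000 against control (-0.33 ± 0.10, adjusted p = 0.00626). Between the dilutions INSIG2 was called with the block (-0.22, adjusted p = 0.0482), with upper-quartile scaling (adjusted p = 0.0323), without 1:10000 replicate 2 (adjusted p = 0.0422) and without 1:40000 replicate 5 (adjusted p = 0.0409).

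**Figure D5:**
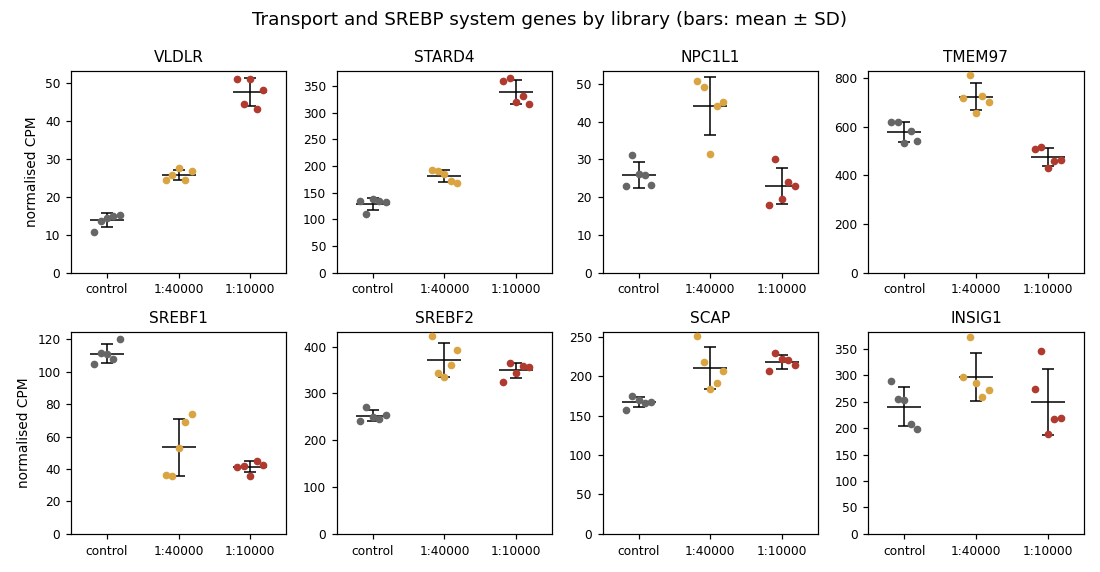
Normalised CPM of 4 transport genes (top) and 4 SREBP system genes (bottom) in every library, with points for libraries and bars for the mean ± SD of 5. VLDLR and STARD4 rise with concentration, NPC1L1 and TMEM97 are highest at 1:40000, and SREBF1 is split at 1:40000.

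The members share regulators, so their promoters were searched for known motifs. In RefSeq windows of 250 bases before to 50 bases after the gene start (GRCh38.p14), 33 of the 38 members matched, with 44 windows, and FDFT1, ACAT2, FASN, SQLE and PNPLA3 did not. The SRE core was searched as TCACNCCAC, the NF-Y box as CCAAT, the Sp1 box as GGGCGG and the E-box as CACGTG, each on both strands. The NF-Y box was in 63.6% of member windows, against 34.7% of the windows of genes tested. The Sp1 box was in 86.4% of member windows against 66.3%, and the E-box in 13.6% against 9.32%. The SRE core was in 1 of 44 member windows, that of SREBF2, and in 1.10% of the windows of genes tested. Base composition differed as well, with a median GC content of 67.8% in member windows against 65.0%. Of the members lower between the dilutions, 17 of the 20 in the table had an NF-Y box, of the 3 higher 1 did, and of the 10 not called 6 did. A member was counted if any of its windows held the box, so these counts cannot be set against the shares of windows. Windows of the same gene can also overlap and hold the same box, as for SC5D and ACLY. These are matches of letters, and no binding was measured. The windows below show SREBF2 as the only one with the SRE core, MVD and TM7SF2 as genes that fell between the dilutions, and STARD4 and VLDLR as genes that rose. Capitals mark the SRE core and the NF-Y box, or its reverse complement.
SREBF2, chr22:41832855-41833154, plus strand: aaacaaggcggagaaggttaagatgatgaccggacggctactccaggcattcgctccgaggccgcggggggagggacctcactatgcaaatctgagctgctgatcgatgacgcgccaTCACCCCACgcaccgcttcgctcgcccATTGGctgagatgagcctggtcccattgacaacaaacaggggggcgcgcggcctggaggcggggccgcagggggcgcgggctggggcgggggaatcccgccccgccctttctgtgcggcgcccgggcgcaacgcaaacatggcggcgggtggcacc
MVD, chr16:88663042-88663341, minus strand: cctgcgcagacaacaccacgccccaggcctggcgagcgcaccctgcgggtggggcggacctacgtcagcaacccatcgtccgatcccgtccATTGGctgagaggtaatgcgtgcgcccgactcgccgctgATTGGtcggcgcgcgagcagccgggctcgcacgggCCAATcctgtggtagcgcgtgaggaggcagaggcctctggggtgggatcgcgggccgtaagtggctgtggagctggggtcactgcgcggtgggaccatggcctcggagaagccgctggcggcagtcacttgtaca
TM7SF2, chr11:65111622-65111921, plus strand: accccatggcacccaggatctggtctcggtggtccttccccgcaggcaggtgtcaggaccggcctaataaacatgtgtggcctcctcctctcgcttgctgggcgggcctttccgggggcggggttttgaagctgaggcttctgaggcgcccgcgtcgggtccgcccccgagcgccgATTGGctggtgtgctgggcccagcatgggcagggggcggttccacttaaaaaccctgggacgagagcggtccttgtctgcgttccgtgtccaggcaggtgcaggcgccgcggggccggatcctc
STARD4, chr5:111512486-111512785, minus strand: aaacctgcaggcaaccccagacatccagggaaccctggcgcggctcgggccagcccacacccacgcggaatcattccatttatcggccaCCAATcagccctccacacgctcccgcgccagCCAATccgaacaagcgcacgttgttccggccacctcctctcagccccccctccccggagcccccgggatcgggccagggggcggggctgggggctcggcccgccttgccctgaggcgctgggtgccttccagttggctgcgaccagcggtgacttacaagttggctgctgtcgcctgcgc
VLDLR, chr9:2621537-2621836, plus strand: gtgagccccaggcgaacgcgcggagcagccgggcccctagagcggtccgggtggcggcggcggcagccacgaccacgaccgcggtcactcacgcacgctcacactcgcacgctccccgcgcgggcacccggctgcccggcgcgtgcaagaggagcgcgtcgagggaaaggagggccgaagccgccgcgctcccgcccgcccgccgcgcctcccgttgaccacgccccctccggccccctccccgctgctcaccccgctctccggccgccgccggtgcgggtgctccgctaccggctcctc

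Genes around the pathway were read from 5 further lists. Their counts between the dilutions stand beside 28.3% of all genes tested that rose and 29.1% that fell, and no list was tested. Among the 7 genes of SREBP processing and sterol-triggered degradation, 2 rose and 4 fell between the dilutions. ERLIN2, a scaffold protein of the endoplasmic reticulum membrane, averaged 73.5 ± 2.62 CPM in the controls, 68.3 ± 4.50 CPM at 1:40000 and 37.8 ± 3.18 CPM at 1:10000 and fell between the dilutions (-0.85 ± 0.07, adjusted p = 5.7e-10). Among the LXR and efflux genes, ABCG1, ABCG5 and ABCG8 were at or near 0 and were not tested. Of the 4 tested, 3 fell between the dilutions and 1 rose. ABCA1, which exports cholesterol to apolipoproteins, averaged 82.2 ± 16.4 CPM in the controls, 42.0 ± 1.92 CPM at 1:40000 and 8.21 ± 1.85 CPM at 1:10000, with a log2 fold change of -2.36 ± 0.14, adjusted p = 1.23e-11 between the dilutions. MYLIP, a ubiquitin ligase for lipoprotein receptors such as VLDLR, averaged 61.9 ± 3.93 CPM in the controls, 41.5 ± 3.90 CPM at 1:40000 and 23.4 ± 3.89 CPM at 1:10000 and fell as well (-0.84 ± 0.10, adjusted p = 6.84e-08).

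Of the 6 genes of sterol storage and lysosomal export, 2 rose and 2 fell between the dilutions. SOAT2, which esterifies cholesterol in enterocytes, averaged 18.9 ± 3.68 CPM in the controls, 22.1 ± 1.25 CPM at 1:40000 and 6.36 ± 0.686 CPM at 1:10000 and fell (-1.80 ± 0.13, adjusted p = 3.41e-11). NPC1, the lysosomal cholesterol exporter, averaged 67.6 ± 4.58 CPM in the controls, 94.1 ± 17.6 CPM at 1:40000 and 127 ± 15.1 CPM at 1:10000 and rose (0.44 ± 0.10, adjusted p = 0.00119), as did the ester hydrolase NCEH1 (0.60 ± 0.09, adjusted p = 4.78e-06). Of the 8 genes of the isoprenoid branch, 3 rose and 1 fell between the dilutions. RABGGTB, a subunit of the enzyme that prenylates Rab proteins, averaged 28.3 ± 3.16 CPM in the controls, 39.6 ± 5.68 CPM at 1:40000 and 129 ± 31.1 CPM at 1:10000 and rose (1.71 ± 0.14, adjusted p = 1.66e-08). FNTB, a farnesyltransferase subunit, averaged 13.0 ± 1.58 CPM in the controls, 6.68 ± 0.841 CPM at 1:40000 and 5.58 ± 0.566 CPM at 1:10000. It fell at 1:10000 against control (-1.24 ± 0.14, adjusted p = 2.35e-08) but was not called between the dilutions. The exons of RABGGTB overlap those of ACADM, SNORD45A, SNORD45B and SNORD45C, and those of FNTB overlap CHURC1-FNTB. The part of these overlaps was not tested.

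Of 21 other genes of fatty acid elongation and lipogenesis, 19 were tested, and 4 rose and 10 fell between the dilutions. MLXIPL, which encodes the glucose-responsive factor ChREBP, averaged 4.55 ± 1.54 CPM in the controls, 7.99 ± 2.16 CPM at 1:40000 and 2.46 ± 0.766 CPM at 1:10000, and ACACB, the mitochondrial acetyl-CoA carboxylase, 18.9 ± 2.89 CPM in the controls, 31.967 ± 5.74 CPM at 1:40000 and 15.1 ± 1.51 CPM at 1:10000. Between the dilutions MLXIPL fell by 1.76 and ACACB fell by 1.08 on the log2 scale. GPAM, which starts glycerolipid synthesis, averaged 116 ± 6.94 CPM in the controls, 108 ± 5.93 CPM at 1:40000 and 61.2 ± 5.88 CPM at 1:10000 and fell (-0.82 ± 0.07, adjusted p = 4.81e-10). Of the acyl-CoA synthetases, ACSL3 and ACSL5 rose between the dilutions (log2 fold changes 0.34 and 0.46) and ACSL4 fell by 0.29. ACSL1, named after its values were seen, fell by 0.88. HACD3 and TECR, enzymes of the elongation cycle, averaged 387 ± 14.7 CPM in the controls, 269 ± 12.1 CPM at 1:40000 and 222 ± 14.1 CPM at 1:10000 for HACD3, and 175 ± 8.37 CPM in the controls, 143 ± 12.5 CPM at 1:40000 and 116 ± 9.18 CPM at 1:10000 for TECR. Between the dilutions HACD3 fell by 0.28 and TECR fell by 0.30.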

How the data were processed

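The deposited files, 1 for each library of polyadenylated RNA, hold unnormalised counts for Ensembl genes. Per the file headers, the control counts came from RNA STAR (60649 genes) and the rinse aid counts from HISAT2 (61544 genes). Per the submitters' processing notes, the tools were DESeq2 1.32.0, STAR 2.7.9a, featureCounts and cutadapt, and the build GRCh38, with no roles given. The annotation release and strand setting are not given in the sources used here. Files were joined on 60601 shared identifiers, which held at least 99.98% of each library's counts. GENCODE 29 gave exon overlaps, pseudogenes and lengths. In R 4.3.3, edgeR 4.0.16 (robust quasi-likelihood test, TMM, filterByExpr) fitted a mean for each of the 3 groups, and the script was tested on simulated data. SE is the absolute log2 fold change over the square root of F. Alternatives were DESeq2 1.42.0, upper-quartile scaling, no filter, a replicate block, each library left out, 1:40000 replicates 1 and 2 left out, genes free of copies and overlaps, and the rinse aid libraries alone. No libraries of a group agreed within sampling noise (smallest chi-square per degree of freedom 1.7). The members and lists were chosen with earlier results of these data known. Values in every library are given for the members with the largest changes per list (3 at 1:10000 against control, and 2 between the dilutions among those called) and for ACACA and LSS. Further genes are named where called in all 3 comparisons or as the 2 largest changes of their list. Some genes of the pathway are not reported here.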

Additional observations from a re-analysis of the deposited data

Results flagged for a closer look

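In 7 of 114 sets of 5 libraries, 1 library stood far from the other 4, with a gap above Dixon's critical value for 5 samples, which chance gives in about 1 of 20 sets. In the 1:10000 group, PMVK was lowest in replicate 2 (17.29 CPM, others 19.68 to 20.63), IDI1 was highest in replicate 1 (235.2 CPM, others 179.1 to 189.6) and FASN was lowest in replicate 2 (343.8 CPM, others 358.4 to 362.6). In the 1:40000 group, replicate 2, the shallowest library, was highest for SQLE (237.6 CPM, others 196.7 to 206.9) and lowest for FADS2 (25.21 CPM, others 32.42 to 34.43). In the controls, IDI1 was highest in replicate 1 (381.7 CPM, others 298.7 to 315.4) and STARD4 was lowest in replicate 2 (109.2 CPM, others 132.2 to 137.4).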

How the results depend on the processing

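Of 2360 alternative values for single members, no call changed direction, 19 lost a call and 23 gained one. Of 466 values for the lists and all genes, 20 moved, 16 of them among the 4512 genes free of copies, overlaps and version changes, which keep 7 sterol and 5 fatty acid members. There, fewer genes being tested, 3246 were called at 1:10000 against control, 2350 at 1:40000 against control and 2797 between the dilutions. Sterol genes lower numbered 6, 1 and 5 in those comparisons, sterol genes higher 0 at 1:10000 and 2 at 1:40000 against control, and the sterol medians were -0.38, -0.11 and -0.40, the second of the other sign than with all members. Fatty acid genes lower numbered 3, 0 and 3, with medians of 0.41 at 1:40000 against control and -0.91 between the dilutions. Leaving out LSS and ACACA, an alternative added after seeing the data, gave 0 fatty acid genes lower at 1:40000 against control and a median of -0.75 between the dilutions. Without 1:40000 replicates 1 and 2, 2 fatty acid genes were lower at 1:40000 against control instead of 1, PNPLA3 being added (-0.41, adjusted p = 0.034). The cause was not tested. With the replicate block, 2 sterol genes were higher at 1:10000 against control instead of 1, MSMO1 being added (adjusted p = 0.0106). The block also added calls of INSIG1 at 1:40000 against control, of INSIG1, INSIG2 and MSMO1 between the dilutions, and of SCD at 1:40000 against control. Deviations of same-numbered libraries from their group means correlated at 0.201 to 0.269 in all 5 pairs of the 2 dilutions, so the block's values between the dilutions stand beside the members whose call they change. Against control the correlations were -0.0528 to 0.255, with 1 pair at 1:40000 and 1 at 1:10000 under 0.1, so those were not taken as paired. Over the 15 pairs, 9 libraries were closest to their own number. Between the dilutions these were numbers 2 and 3 only, and the others were in pairs with control. This hint of pairing comes from the data and not from the labels, and by this measure it was not particular to the dilutions. Depth limits the members least expressed, such as ACACA in rinse aid libraries.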
